A study of Mus musculus with 6 samples.

Results

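The genes described here encode proteins of homologous recombination, the Fanconi anaemia pathway, mismatch repair and the neighbouring repair and checkpoint routes. They were taken as the rows of the deposited gene table whose symbol matched a list of 47 names, and all 47 were found among 23351 genes. Every one of the 47 passed the filter on low values. The list is wider than its name: 5 of its genes act in base excision and single-strand break repair, 4 in end joining and 6 in checkpoint signalling. RNA was sequenced from mouse primary chondrocytes, the cartilage-forming cells, digested from the knee cartilage of C57BL/6 pups on postnatal day 3. There were 3 libraries from Uhrf1 conditional knockout (cKO) mice and 3 from control mice. Cells of both groups had been grown to confluence and exposed for 24 hours to 100 ng/ml of recombinant BMP-2, a growth factor that promotes cartilage differentiation. No source used here names the Cre driver of the cKO, or the genotype of the controls beyond that word. Levels are in FPKM, fragments scaled to transcript length and library size.

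Homologous recombination mends broken or stalled replication forks by copying the sister chromatid. Broken ends are trimmed to single strands, BRCA1 and BRCA2 complexes load a recombinase on them, and helicases and nucleases resolve the joined molecules. The Fanconi pathway unhooks crosslinks between DNA strands, mismatch repair corrects copying errors, and ATR and ATM signal damage to the kinases CHK1 and CHK2. Many of these genes are transcribed most in the S and G2 phases of dividing cells, under E2F factors. The targeted gene, Uhrf1, encodes a protein that recognises hemimethylated DNA at replication forks and recruits the maintenance methyltransferase. In human cells UHRF1 has also been described as a sensor of interstrand crosslinks that attracts the FANCD2 and FANCI proteins.

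Uhrf1 itself checked the labels, at 3.22, 3.17 and 2.73 FPKM in the cKO libraries and 28.2, 22.9 and 30.6 FPKM in the control libraries. Cartilage markers were present in every library, with 8 of them summing to 6840 to 7379 FPKM in cKO and 10157 to 13504 FPKM in control, and 7 of the 8 were lower. For genes under 1 FPKM in every library, each library's values were divided by those of Control 1. The inverse of the most common ratio near 1 placed relative depth at 0.864 to 1.01, with Control 1 set to 1. Absolute depth is unknown. Y-linked Ddx3y was above 0 in cKO 1, Control 1 and Control 3 and listed at 0 in the other libraries, so the sexes are unevenly spread. The sample descriptions open with 1 number for all cKO libraries and with another for all control libraries, so whatever that number marks is confounded with genotype and the 2 cannot be told apart. No label says whether replicates were separate animals or cultures. The p-values therefore cover the spread between these libraries, which may be technical.

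The comparison asks which repair genes differed between cKO and control chondrocytes. Of the 47 genes, 11 were lower in cKO and none was higher, by limma on log2(FPKM + 1) with Benjamini-Hochberg adjustment over all genes tested and a threshold of 0.05. That is 23.4% of the set lower, beside 7.96% of the 11911 genes tested. Over all genes tested 948 were lower and 1168 (9.81%) higher, a split that moved to 814 and 1227 with upper quartile scaling and to 1282 and 1039 with median scaling, under which 10 and 14 of the 47 were lower and none higher. The 11 were Ung, Neil3, Fancb, Fanci, Chek2, Blm, Topbp1, Clspn, Chek1, Xrcc2 and Parp1. As ratios of mean FPKM their falls ran from 1.37-fold for Parp1 to 2.25-fold for Ung. On the tested log2(FPKM + 1) scale, which shrinks low genes, the differences ran to -0.98 for Ung, whose log2 fold change in the authors' deposited table is -1.17. The other 36 genes were not called, but 43 of the 47 had a negative difference, beside 5946 of all genes tested. The median difference was -0.30 over the 47 genes and 0.00039 over all genes tested. At an unadjusted p under 0.05, 20 of the 47 were lower and none was higher, beside 15.2% of all genes tested lower and 16.1% higher.

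The authors' deposited table gives its own test for 42 of the 47 genes, and calls 19 of them lower and none higher. Over all 9701 genes with such a test, 11.2% were called lower and 11.7% higher in the authors' deposited table. The 19 hold all 11 genes named above, and 8 more from the authors' deposited table, which are Bard1, Exo1, Mre11a, Rad50, Rad51c, Fanca, Fancm and Fancd2.

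In 23 of the 47 genes every cKO library lay below every control library, beside 17.5% of all genes tested, and in none did every cKO library lie above, beside 18.4%. Calls depended on single libraries, and without cKO 3 or without Control 1 the share of the 47 called was close to that of all genes. Without cKO 3, 2 of the 47 genes were called (beside 4.28% of all genes), without Control 1 there were 4 (7.88%), without Control 2 there were 6 (5.45%), without cKO 1 there were 6 (5.07%), without Control 3 there were 7 (6.78%), and without cKO 2 there were 9 (5.3%). Chek2 and Ung were called whichever library was left out. A covariate for Y-linked transcript left 6 genes called, beside 5.87% of all genes tested.

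**Figure D1:**
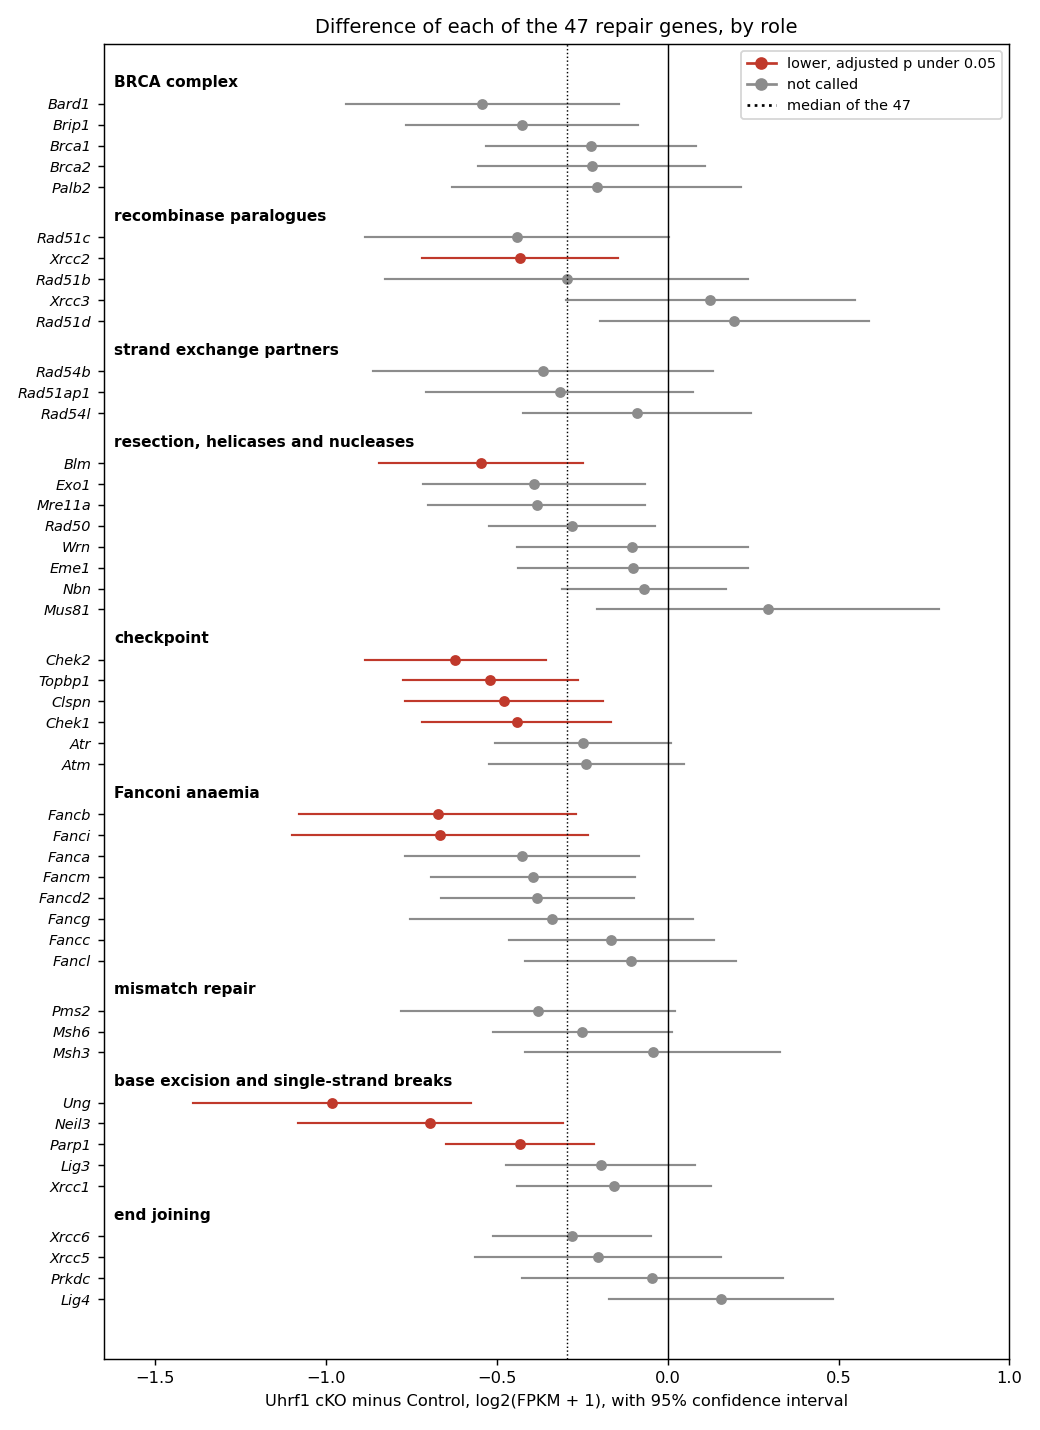
Difference between Uhrf1 cKO and control on the log2(FPKM + 1) scale (horizontal axis) for each of the 47 repair genes, grouped by role, with 95% confidence intervals from limma (3 libraries a group). The 11 red genes passed an adjusted p of 0.05, 43 of the 47 points lie left of 0, and the dotted line is the median of -0.30.

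Checkpoint signalling held the most calls, with 4 of its 6 genes lower and all 6 below the controls in every library. Over all genes tested these shares were 7.96% and 17.5%, and no role group was tested as a set. Chek2, the effector kinase of ATM (chromosome 5, 110839979 to 110874145, plus strand, GENCODE M21 on GRCm38, which is mm10), stood at 7.494, 7.004 and 7.769 FPKM in cKO and 13.6, 11.6 and 10.8 FPKM in control. It was 1.62-fold lower, with a log2 difference of -0.62 ± 0.12 (SE; limma, adjusted p = 0.00651). Topbp1, which activates ATR, was the most highly expressed gene of the set and stood at 22.6, 23.3 and 20.5 FPKM in cKO and 36.7, 27.8 and 32.4 FPKM in control. It was 1.46-fold lower (limma, adjusted p = 0.0129), a call lost without cKO 3 (adjusted p = 0.0592). Clspn encodes claspin, the adaptor through which ATR reaches CHK1. Its level was 9.75, 13.1 and 11.1 FPKM in cKO and 17.4, 14.4 and 16.5 FPKM in control, so the highest cKO value came near the lowest control value. Clspn was 1.42-fold lower (limma, adjusted p = 0.0317), called only when cKO 2 or Control 2 was the library left out (adjusted p = 0.0731 to 0.109 otherwise). Chek1, the effector kinase of ATR, was tight in cKO at 4.92, 5.10 and 5.09 FPKM, against 7.64, 7.65 and 6.39 FPKM in control. It was 1.43-fold lower (limma, adjusted p = 0.0368), a call lost without any single library other than Control 3 (adjusted p = 0.0802 to 0.116). The upstream kinases were not called. Atr stood at 7.33 ± 0.371 FPKM in cKO and 8.91 ± 0.739 in control (SD, n = 3 each), and Atm at 5.08 ± 0.505 FPKM in cKO and 6.16 ± 0.386 in control, with limma adjusted p = 0.173 and 0.239.

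The 300 bases around the RefSeq start sites (250 before and 50 after, GRCm38.p6) are shown for 3 of these genes, because each held the letters of an E2F site, here in capitals. Each is printed 5′ to 3′ on the gene's own strand.
Chek2, chr5:110839733-110840032, plus strand: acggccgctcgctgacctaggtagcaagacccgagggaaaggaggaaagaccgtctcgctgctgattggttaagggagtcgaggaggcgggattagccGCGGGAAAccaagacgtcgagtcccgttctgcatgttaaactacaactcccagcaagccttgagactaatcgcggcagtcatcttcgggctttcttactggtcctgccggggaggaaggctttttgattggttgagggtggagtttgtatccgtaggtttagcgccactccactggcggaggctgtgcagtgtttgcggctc
Topbp1, chr9:103305077-103305376, plus strand: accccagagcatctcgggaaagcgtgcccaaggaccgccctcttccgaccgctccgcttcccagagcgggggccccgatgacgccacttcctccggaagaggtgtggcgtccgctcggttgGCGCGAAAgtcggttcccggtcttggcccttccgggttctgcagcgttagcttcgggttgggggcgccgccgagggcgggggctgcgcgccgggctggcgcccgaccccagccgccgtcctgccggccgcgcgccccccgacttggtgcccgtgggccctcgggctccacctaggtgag
Clspn, chr4:126556730-126557029, plus strand: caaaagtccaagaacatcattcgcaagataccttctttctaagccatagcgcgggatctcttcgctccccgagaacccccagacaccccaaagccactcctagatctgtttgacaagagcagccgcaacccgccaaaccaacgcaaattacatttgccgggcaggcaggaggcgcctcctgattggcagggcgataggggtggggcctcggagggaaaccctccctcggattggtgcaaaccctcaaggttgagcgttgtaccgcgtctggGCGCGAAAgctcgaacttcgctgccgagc
The capitals begin 152 bases before the start in Chek2, 129 before it in Topbp1 and 21 after it in Clspn. No such letters were in the windows of Chek1 and of the other called genes with a sequence, which says only that these letters are not there. The windows of Chek1 and Neil3 end in gcgggaa and gcggga, the first letters of GCGGGAAA. A site that crosses the window edge would be missed.

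Base excision and single-strand break repair held 3 calls among 5 genes, beside 7.96% of all genes tested. Ung, the glycosylase that removes uracil from DNA (chromosome 5, 114130386 to 114139323, plus strand), showed the largest fall of the 47 genes. It stood at 3.13, 2.98 and 4.56 FPKM in cKO and 6.49, 9.65 and 7.83 FPKM in control, and the groups did not overlap. The log2 difference was -0.98 ± 0.18 (SE; limma, adjusted p = 0.00567), and leaving out single libraries gave -0.85 to -1.13. Neil3, a glycosylase for oxidised bases that also opens crosslinks, stood at 8.17, 7.60 and 4.90 FPKM in cKO and 12.3, 12.2 and 10.2 FPKM in control. Its 1.68-fold fall (limma, adjusted p = 0.0227) was not called without Control 1, Control 2 or cKO 3 (adjusted p = 0.0550 to 0.0755). Parp1, the polymerase that marks strand breaks with poly-ADP-ribose, was 20.2, 20.7 and 20.4 FPKM in cKO and 26.9, 25.98 and 31.2 FPKM in control. The cKO values were close together, and the 1.37-fold fall (limma, adjusted p = 0.0141) was lost without cKO 3 (adjusted p = 0.0541). The ligase Lig3 and its scaffold Xrcc1, which join single-strand breaks, were not called (limma, adjusted p = 0.318 and 0.445). Xrcc1 averaged 16.5 ± 1.07 FPKM in cKO and 18.7 ± 2.93 FPKM in control (SD, n = 3 each).

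Among 8 Fanconi genes, 2 were lower, and the cKO libraries lay below all controls in 6. Fancb, the X-linked subunit of the core ubiquitin ligase complex (chromosome X, 164980592 to 164997272, plus strand), stood at 3.63, 3.17 and 4.26 FPKM in cKO and 7.34, 4.79 and 7.53 FPKM in control. Control 2, a library without Ddx3y, was the lowest control. The 1.78-fold fall (limma, adjusted p = 0.0308) was kept only without Control 2, with adjusted p = 0.0512 to 0.101 without each other library and 0.0673 with the Y-linked covariate. Fanci, which forms a clamp on DNA with FANCD2, stood at 2.43, 4.78 and 3.10 FPKM in cKO and 5.61, 5.69 and 6.35 FPKM in control. The cKO libraries were widely spread, with cKO 2 near the controls. Its 1.71-fold fall (limma, adjusted p = 0.0418) was kept only without cKO 2 (adjusted p = 0.0699 to 0.126 otherwise). Exons of Fanci overlap 921 bases of Polg on the opposite strand, and no source used here says how reads there were assigned. Its partner Fancd2 was 5.99 ± 0.479 FPKM in cKO and 8.11 ± 0.855 in control (SD, n = 3 each; limma, adjusted p = 0.0672). Fanca and Fancm, a core subunit and the translocase that anchors the core to DNA, had adjusted p = 0.0872 and 0.0723 in limma. Fancg, a core subunit, differed by -0.34 with overlapping groups (limma, adjusted p = 0.248). Fancc, a core subunit, and Fancl, the ligase subunit, had the smallest differences of this group, at -0.16 and -0.11 on the log2 scale.

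The BRCA complexes, which load the recombinase, held no called gene among 5, although all 5 differences were negative. Brca1 stood at 4.84, 5.91 and 5.27 FPKM in cKO and 6.88, 6.88 and 5.49 FPKM in control, and the groups overlapped. The 95% interval of its log2 difference ran from -0.53 to 0.084 (limma, adjusted p = 0.307). Bard1, the partner of BRCA1 in its ubiquitin ligase, was 1.50, 2.44 and 2.42 FPKM in cKO and 3.96, 3.09 and 3.49 FPKM in control. These groups did not overlap, and the log2 difference was -0.54 (limma, adjusted p = 0.0657). Brip1, a helicase that binds BRCA1, was 1.50-fold lower without a call (limma, adjusted p = 0.0837). Brca2 and Palb2, the pair that delivers the recombinase, averaged 2.46 ± 0.331 and 1.22 ± 0.300 FPKM in cKO and 3.02 ± 0.0530 and 1.56 ± 0.309 FPKM in control (SD, n = 3 each).

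Among the 5 recombinase paralogues, which stabilise the recombinase filament, Xrcc2 was called. It stood at 5.22, 5.93 and 6.15 FPKM in cKO and 7.69, 7.56 and 9.19 FPKM in control. This 1.41-fold fall was close to the threshold (limma, adjusted p = 0.0449) and was lost without any single library (adjusted p = 0.0559 to 0.139). Rad51c was 6.10, 3.13 and 4.02 FPKM in cKO and 6.96, 5.64 and 5.97 FPKM in control, with cKO 1 inside the control range (limma, adjusted p = 0.163). Without cKO 1 it was called lower (adjusted p = 0.0381). Rad51d and Xrcc3 had positive differences of 0.20 and 0.12 on the log2 scale, neither called (limma, adjusted p = 0.494 and 0.707). Rad51b was low and uneven, at 1.55 ± 0.801 FPKM in cKO and 2.02 ± 0.222 FPKM in control (SD, n = 3 each; limma, adjusted p = 0.443).

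None of the 3 strand exchange partners was called. Rad51ap1, which helps the filament to invade, stood at 7.40, 10.3 and 10.9 FPKM in cKO and 12.2, 9.66 and 14.5 FPKM in control. Rad54l, a motor protein of the same step, stood at 5.10, 5.29 and 7.25 FPKM in cKO and 6.20, 5.89 and 6.70 FPKM in control. Groups overlapped in both genes, and the 95% interval for Rad54l ran from -0.42 to 0.24 on the log2 scale. Rad54b shares 2068 exon bases with Fsbp on the same strand, so its value, 3.39 ± 1.32 FPKM in cKO and 4.51 ± 0.682 FPKM in control (SD, n = 3 each), is uncertain.

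Of 8 resection factors, helicases and nucleases, Blm was the 1 called. Blm encodes the RecQ helicase that is mutated in Bloom syndrome. It stood at 3.99, 5.02 and 4.52 FPKM in cKO and 7.75, 6.85 and 6.52 FPKM in control, a 1.56-fold fall (limma, adjusted p = 0.0206). It stayed called when Control 3 or cKO 2 was left out, and adjusted p was 0.0530 to 0.0748 when any of the other 4 libraries was. The trimming complex of Mre11a, Rad50 and Nbn was uneven. Mre11a, its nuclease, was 11.3, 15.4 and 10.8 FPKM in cKO and 15.9, 15.3 and 18.2 FPKM in control, and was called without cKO 2 (limma, adjusted p = 0.0289) but not with it (adjusted p = 0.0950). Nbn, the adaptor, was 13.2, 14.3 and 14.6 FPKM in cKO and 15.8, 13.2 and 15.5 FPKM in control, and the groups overlapped. The nuclease Exo1 was 3.20 to 3.24 FPKM in cKO and 3.81 to 5.12 FPKM in control (limma, adjusted p = 0.0968). Mus81, a junction-cutting nuclease, had the most positive difference of the 47, at 4.52 ± 0.874 FPKM in cKO and 3.60 ± 1.36 FPKM in control (SD, n = 3 each; limma, adjusted p = 0.417), while its partner Eme1 and the Werner syndrome helicase gene Wrn both differed by -0.10 on the log2 scale. Rad50, the coiled-coil subunit that tethers ends, was 9.28 ± 0.261 FPKM in cKO and 11.5 ± 0.991 FPKM in control, without overlap (SD, n = 3 each; limma, adjusted p = 0.109).

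Mismatch repair and end joining held no calls among 3 and 4 genes. Msh6, which recognises base mismatches, stood at 11.4, 12.4 and 10.6 FPKM in cKO and 14.7, 12.1 and 14.7 FPKM in control (limma, adjusted p = 0.178). Pms2, the nuclease subunit, was 4.36, 3.16 and 5.47 FPKM in cKO and 5.10, 6.32 and 6.13 FPKM in control. Msh3, for larger loops, differed by -0.04 on the log2 scale, with a 95% interval of -0.42 to 0.33. The Ku subunits were among the most abundant of the 47. Xrcc6 was 26.5, 22.0 and 22.6 FPKM in cKO and 29.6, 26.7 and 30.3 FPKM in control, without overlap (limma, adjusted p = 0.0940). Xrcc5 was 18.2, 16.2 and 14.1 FPKM in cKO and 22.3, 20.2 and 14.5 FPKM in control, with overlap. Prkdc, the kinase that Ku recruits, differed by -0.05 and the ligase Lig4 by 0.16 on the log2 scale, neither called.

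**Figure D2:**
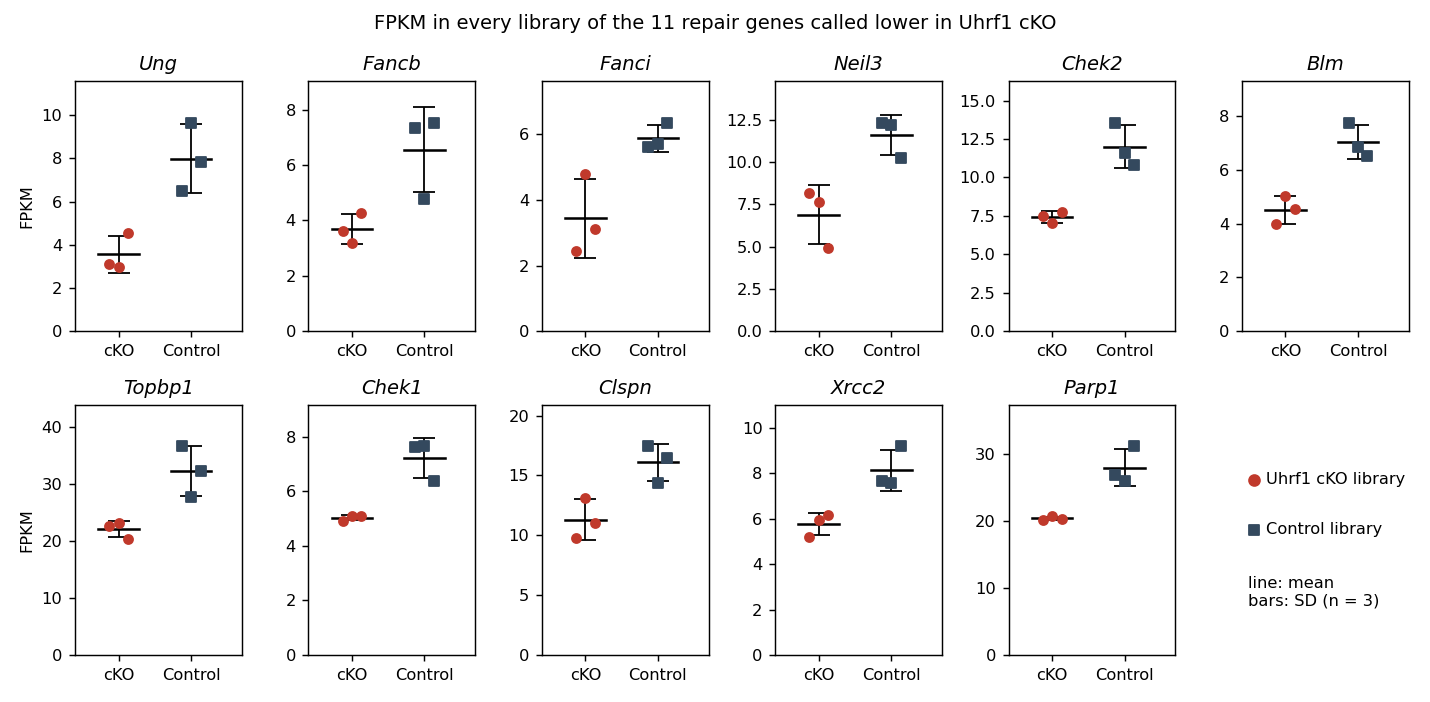
FPKM (vertical axes, from 0) of the 11 called genes in each of the 3 Uhrf1 cKO (red circles) and 3 control (dark squares) libraries, with the mean and SD of each group. In each panel the highest cKO library lies below the lowest control library, as in Fancb (4.26 and 4.79 FPKM) and Clspn (13.1 and 14.4 FPKM).

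Mean levels over the 6 libraries ran from 1.39 FPKM for Palb2 to 27.2 FPKM for Topbp1, with a median of 5.77 FPKM. Of 18 genes under 5 FPKM, 1 was called, and of 29 genes at or above 5 FPKM, 10 were called. The median differences of these levels were -0.26 and -0.32 on the log2 scale. Of all genes tested 7.96% were lower, and of all genes that reached 5 FPKM in 2 libraries 9.95% were. Shares of all genes at the levels of this split were not counted, so it is not read as a trait of the 47. The median coefficient of variation over the 47 genes was 13.5% between cKO and 11.1% between control libraries.

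The falls were next set beside cell cycle genes. Of the 47, 20 were listed as known to peak in S or G2 phase, and 8 of these were lower, with all 20 differences negative and a median of -0.43. Of the other 27, 3 were lower (Chek2, Xrcc2 and Parp1), 23 differences were negative and the median was -0.21. The shares lower were 40.0% and 11.1%, beside 7.96% of all genes tested. Of 38 S phase genes, 22 were lower, with a median of -0.43. These include the polymerase subunit gene Pole2 (8.58 ± 0.690 FPKM in cKO and 16.8 ± 2.87 in control, SD, n = 3 each) and the ribonucleotide reductase gene Rrm2, 1.96- and 1.75-fold lower. All 26 G2 and M phase genes were lower, with a median of -0.87. Cenpa, the centromeric histone, and the anaphase activator Cdc20 fell 2.64- and 2.25-fold. Whether cells in cycle were fewer or held less of these RNAs cannot be told apart in bulk samples, and the part of the cell cycle in the repair gene values was not tested. Among 20 E2F, RB and MYB-MuvB regulators, 4 were lower and none higher. E2f8, a repressing E2F factor, was 7.48 ± 0.110 FPKM in cKO and 14.0 ± 0.202 FPKM in control (SD, n = 3 each; limma, adjusted p = 0.000527), Mybl2, a MYB factor of late cell cycle genes, was 1.64-fold lower, a call lost without cKO 1 (adjusted p = 0.0526), and Tfdp1, which encodes the partner that E2F factors bind DNA with, was 1.38-fold lower.

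The same lists were followed library by library. Over the 47 genes the median deviation from the control mean was -0.34, -0.27 and -0.33 in cKO 1, 2 and 3 and 0.049, -0.088 and 0.051 in Control 1, 2 and 3, on the log2(FPKM + 1) scale. In the S phase genes it was -0.49, -0.35 and -0.48 in cKO and 0.027, -0.11 and 0.073 in control. In both lists cKO 2 was nearest to the controls and Control 2 was the lowest control. Markers of other cells also differed between the groups. The 12 skeletal muscle markers summed to 131 to 218 FPKM in cKO and 7.19 to 8.93 FPKM in control. Myog, Myod1, Actc1, Tnnc2 and Ckm were at 0 in every control library. All 11 tested were higher, beside 9.81% of all genes tested. Of these, Myog, Myod1, Actc1, Tnnc2, Des, Myl1 and Myh3 had no control library that reached 1 FPKM. They passed the filter only through cKO, so nothing is read from the direction of their calls. The 6 osteoblast markers summed to 716 to 863 FPKM in cKO and 345 to 594 FPKM in control, and 4 were higher. The 9 macrophage markers summed to 29.5 to 37.9 FPKM in cKO and 10.4 to 52.0 FPKM in control. To this sum Lyz2 gave 7.41 to 11.97 FPKM in cKO and 7.02 to 46.6 FPKM in control. Cd163 was listed at 0 in every library of both groups. Emr1 averaged 0.039 FPKM in cKO and 0.42 FPKM in control, and Ptprc 0.11 and 0.043 FPKM, all too low to be tested. Of 6 tested, 5 differences were positive, with a median of 0.49, and 1 gene was higher. This was Fcer1g, an Fc receptor subunit, at 18.2, 11.5 and 17.9 FPKM in cKO and listed at 0, 0.702 and 0 FPKM in control. Fcer1g and Csf1r had no control library that reached 1 FPKM. Both passed the filter only through cKO, so nothing is read from the direction of their differences. The part of these marker genes in the repair gene values was not tested.

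**Figure D3:**
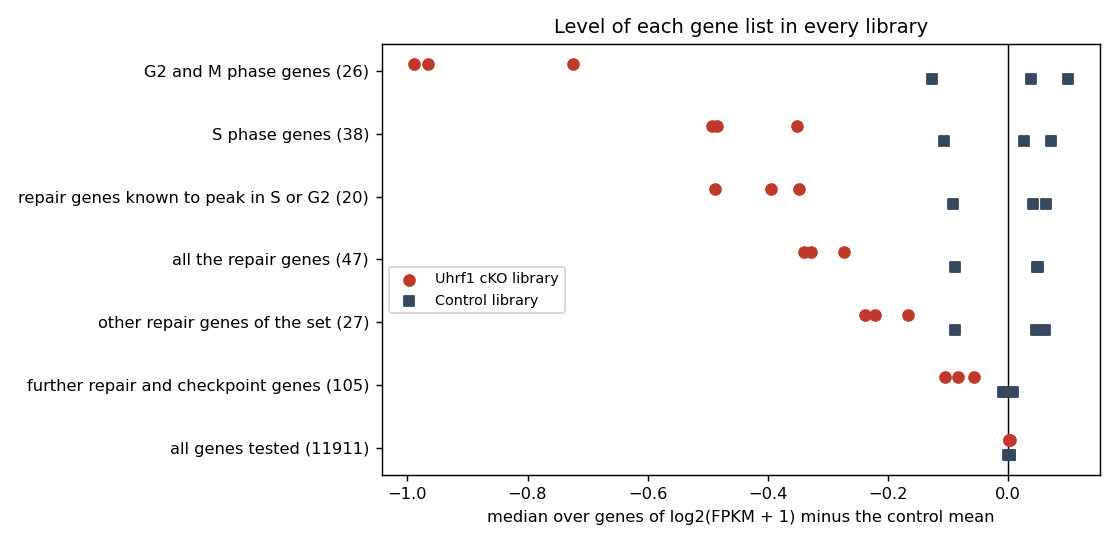
Median over the genes of each list (number in brackets) of log2(FPKM + 1) minus the control mean (horizontal axis), in each Uhrf1 cKO (red circles) and control (dark squares) library. The 3 cKO libraries lie at -0.34, -0.27 and -0.33 for the 47 repair genes, at -0.99, -0.72 and -0.97 for the G2 and M phase genes and near 0 for all genes tested.

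Further genes of the same routes were mixed. Of 105 tested repair and checkpoint genes outside the 47, 14 were lower (13.3%) and 3 higher, with a median of -0.09. Of all genes tested 7.96% were lower and 9.81% higher. The counts of the smaller lists below rest on few genes. Of 29 other recombination genes, 6 were lower and none higher, led by Fignl1, a regulator of the recombinase filament, at 11.4 ± 1.18 FPKM in cKO and 18.7 ± 2.84 FPKM in control (SD, n = 3 each; limma, adjusted p = 0.00803). Gen1, a junction nuclease, was 1.59-fold lower, a call lost without cKO 1 (adjusted p = 0.0647). Mcm8, a helicase subunit, was 1.43-fold lower, a call lost without any single library (adjusted p = 0.0575 to 0.162). Of 11 other Fanconi pathway genes, 2 were lower, which are the ubiquitin-conjugating enzyme gene Ube2t (1.47-fold, lost without Control 3, cKO 2 or cKO 3, adjusted p = 0.0701 to 0.0920) and the deubiquitinase gene Usp1 (1.30-fold, kept only without Control 3, adjusted p = 0.0536 to 0.145 otherwise). Of 14 other checkpoint genes, 5 were lower. Tipin, of the fork protection complex, stood at 45.7 ± 1.35 FPKM in cKO and 73.0 ± 5.67 FPKM in control (SD, n = 3 each; limma, adjusted p = 0.000733), and H2afx, the histone marked at breaks, was 1.65-fold lower. Timeless, the partner of Tipin, was 1.60-fold lower, kept only without Control 1 (adjusted p = 0.0678 to 0.143 otherwise).

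Excision, end joining and translesion genes held few calls, in both directions. Of all genes tested 7.96% were lower and 9.81% higher, and nothing is read from so few calls. None of 4 further mismatch repair genes and none of 16 nucleotide excision genes was called. Of 17 other base excision genes none was lower and 1 was higher, Parp3, a relative of Parp1 that acts at double-strand breaks, at 55.4 ± 5.15 FPKM in cKO and 29.9 ± 3.46 FPKM in control (SD, n = 3 each; limma, adjusted p = 0.000676). Of 6 other end joining genes, the gap-filling polymerase gene Polm was 1.79-fold higher, called only when Control 3 or cKO 2 was the library left out (adjusted p = 0.0746 to 0.114 otherwise). Of 8 translesion genes 1 was lower, Rad18, the ubiquitin ligase that marks stalled forks, at 7.76 ± 0.766 FPKM in cKO and 11.7 ± 0.196 FPKM in control (SD, n = 3 each; limma, adjusted p = 0.00912). The bypass polymerase gene Polk was 1.44-fold higher, a call lost without cKO 3 (adjusted p = 0.0521).

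A position shared by many of the 47 was then examined, in 19 pairs whose repair gene starts, in GENCODE M21, within 1000 bases of a protein-coding gene on the opposite strand that runs the other way. Of the partners, 16 were tested. Of these 1 was lower (6.25%), close to the 7.96% of all genes tested, and none was higher. Of the 19 repair genes 3 were lower (15.8%), and in no pair were both genes called, a count from which nothing is read at so few calls. Chek2 was lower while its partner Hscb was 11.4 ± 2.47 FPKM in cKO and 10.4 ± 3.50 FPKM in control (SD, n = 3 each; limma, adjusted p = 0.720). Fancb was lower while Mospd2 was 12.8 ± 1.60 FPKM in cKO and 13.5 ± 0.331 FPKM in control (SD, n = 3 each; limma, adjusted p = 0.670). In a further pair the partner was called and the repair gene was not. Prkdc stood at 3.97, 3.06 and 3.67 FPKM in cKO and 4.48, 3.85 and 2.89 FPKM in control. Its partner Mcm4, a subunit of the replicative helicase, fell to 27.8, 28.8 and 25.1 FPKM in cKO, against 37.8, 38.9 and 41.0 FPKM in control (limma, adjusted p = 0.00400). The ratio of Mcm4 to Prkdc was 6.99, 9.40 and 6.84 in cKO and 8.43, 10.1 and 14.2 in control, and these ranges overlapped. An exact two-sided permutation test of the difference in log2(FPKM + 1) between partner and repair gene gave p = 0.1 for Hscb and Chek2 and for Mospd2 and Fancb, and 0.2 for Mcm4 and Prkdc, where 0.1 is the smallest p that 3 against 3 libraries allow, and over the 16 pairs the lowest Benjamini-Hochberg value was 0.267.

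**Figure D4:**
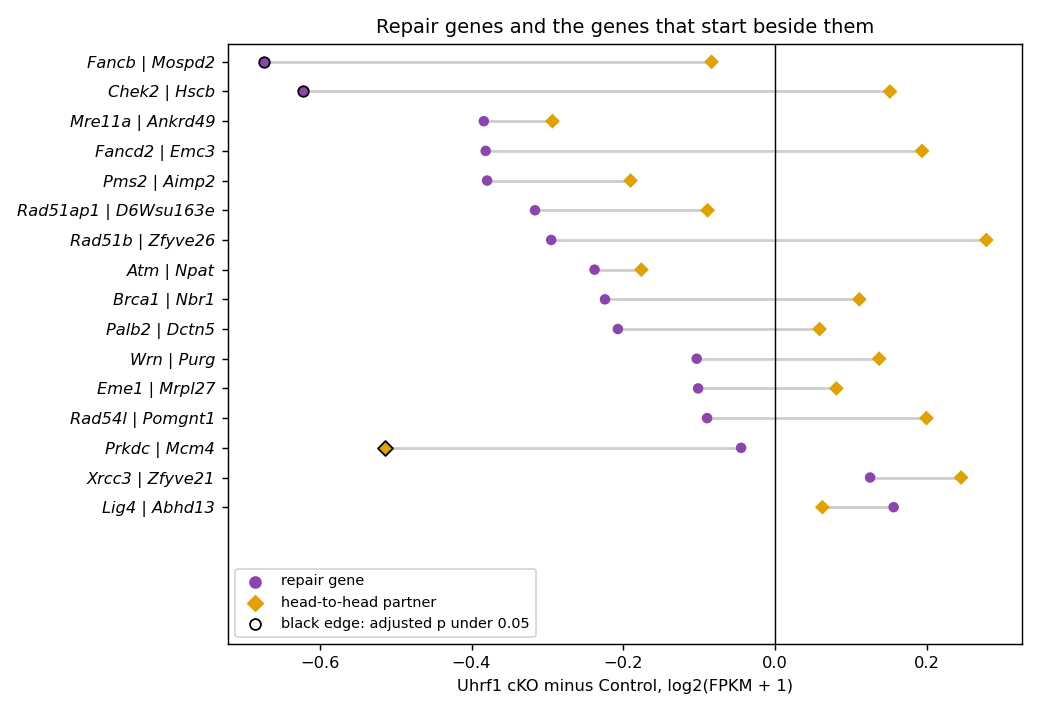
Difference between Uhrf1 cKO and control on the log2(FPKM + 1) scale (horizontal axis) for 16 repair genes (purple circles) and the genes that start beside them on the opposite strand (yellow diamonds), with black edges for an adjusted p under 0.05. Fancb and Chek2 were lower with partners near 0, and Mcm4 was lower with Prkdc near 0.

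The start region of Ung is shown because the gene with the largest fall held no E2F letters, so it has no capitals.
Ung, chr5:114130185-114130484, plus strand: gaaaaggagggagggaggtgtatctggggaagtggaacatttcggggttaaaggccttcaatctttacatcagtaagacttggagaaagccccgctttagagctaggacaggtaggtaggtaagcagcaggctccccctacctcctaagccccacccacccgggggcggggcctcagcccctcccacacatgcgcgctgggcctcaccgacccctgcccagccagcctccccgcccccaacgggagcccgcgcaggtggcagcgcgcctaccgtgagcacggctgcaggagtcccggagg

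RefSeq start regions were found for 38 of the 47 genes. The E2F letters searched were TTTCCCGC, TTTGGCGC, TTTCGCGC and TTTGCCGC on either strand, and sites that overlap each other count once per gene. They occurred in 10 of the 38 (26.3%), beside 4.89% of the 8883 tested genes with a sequence, 44.8% of 29 S phase genes and 4.55% of 22 G2 and M phase genes. Besides Chek2, Topbp1 and Clspn, they were in Bard1, Brca2, Fancg, Msh3, Msh6, Rad51c and Xrcc6. Letters of the CHR element of late cell cycle genes, TTTGAA on either strand, occurred in 3 of the 38 (7.89%), beside 14.0% of tested genes, 13.8% of S phase genes and 72.7% of G2 and M phase genes. The CCAAT box occurred in 55.3% of the 38 and 43.5% of tested genes. E2F letters were in 3 of 10 called and 7 of 28 uncalled genes with a sequence. These are counts of letters, given without a test.

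**Figure D5:**
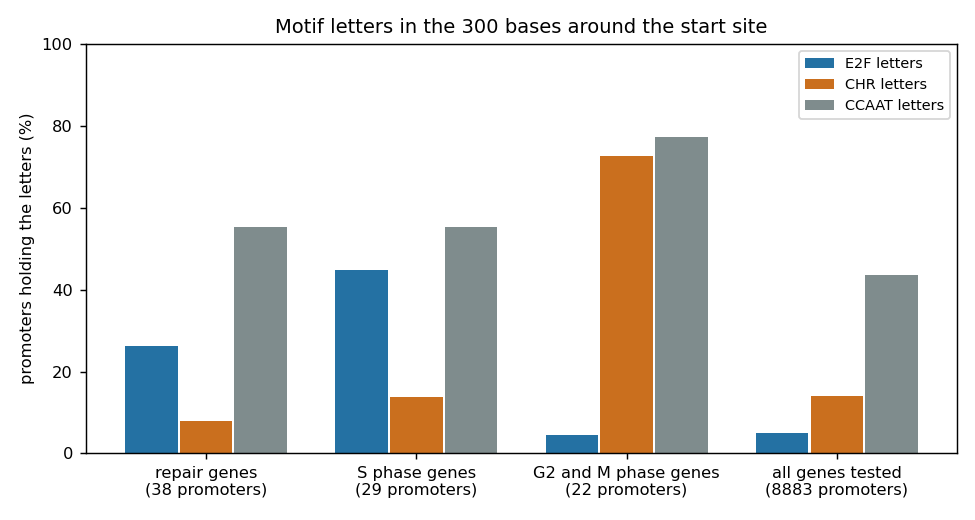
Share of promoters (vertical axis, %) whose 300 bases around the start hold the letters of an E2F site (blue), a CHR element (orange) or a CCAAT box (grey), for the 38 repair genes, 29 S phase genes, 22 G2 and M phase genes and 8883 genes tested. E2F letters stand at 26.3% in the repair genes and 4.89% in all genes tested, and CHR letters at 72.7% in the G2 and M phase genes.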

How the data were processed

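RNA of 3 Uhrf1 cKO and 3 control libraries was compared. Library preparation used a strand-specific kit for mRNA, per the labels' protocols, with sequencing on an Illumina MiSeq. The authors mapped reads to mm10 with TopHat and ran Cufflinks, per the series text. No source used here gives versions, annotation, strand setting or scaling. The deposited values are FPKM, for each library and as group means. The table also holds, per the file headers, a log2 fold change, a test score, a p-value and a q-value. It has 23351 genes and 1 empty line, which is not reported here, and 27 symbols that had turned into dates were not used as names.

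FPKM are not counts, so limma 3.58.1 (R 4.3.3; trend and robust) was run on log2(FPKM + 1) for 11911 genes that reached 1 FPKM in 2 libraries. Its two-sided p-values were adjusted by Benjamini-Hochberg over these genes and called at 0.05. This scale understates changes of low genes. Fold values are ratios of mean FPKM. The test was checked on simulated data with independent noise. These held neither the uneven sexes nor the numbers that open the sample descriptions, so the check says nothing of those limits. The 47 genes, lists, markers, motifs and alternatives were chosen with earlier results of these data known. Values per library are given for called genes and for the 2 most expressed genes of role groups with fewer than 2 calls, and up to 3 called genes are named from each other list. Exons of 15 of the 47 genes overlap other genes, and 11 share their table interval with another gene, so their values are less certain. Positions are from GENCODE M21 and promoter sequences from RefSeq, both on GRCm38, counted from 1. For 1 further pair of neighbouring genes, the values are not reported here.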

Additional observations from a re-analysis of the deposited data

How the results depend on the processing

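The number of the 47 repair genes called lower was 11, and 0 were called higher in each setting run. The median difference over the 47 stayed negative under all 16 alternatives, between -0.35 and -0.26. The count of lower genes was 6 with a covariate for Y-linked transcript, 2 at an adjusted p under 0.01 (beside 3.17% of all genes tested) and 19 in the authors' deposited table, and 2 to 9 when single libraries were left out. It was 8 to 14 under the other pseudocounts, filters, scalings, variance model and block, beside 4.87% to 10.8% of all genes tested. The count of 14 came with median scaling, where 10.8% of all genes tested were lower. The filter at 5 FPKM left 33 of the 47 genes to test. A stricter threshold can only lower the count, and the cause of the other changes was not tested. Differences near 0 changed sign. With the Y-linked covariate, Xrcc3 was -0.0034 and Msh3 0.0039 on the log2 scale. Leaving out single libraries gave -0.017 to 0.27 for Xrcc3, -0.18 to 0.035 for Eme1, -0.14 to 0.068 for Msh3 and -0.18 to 0.066 for Prkdc. Whether replicate numbers pair the libraries is not known. Same-numbered cKO and control libraries correlated at 0.169, 0.0258 and -0.0443 in their deviations from the group means. Differently numbered ones correlated at -0.145 to 0.127, and these values do not settle it. With replicate number as a block, 8 genes were lower, beside 7.94% of all genes tested. Absolute depth is unknown, so no counting interval can be given, and 18 of the 47 genes lie under 5 FPKM, where values are less precise.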
